A study of Mus musculus with 11 samples.

Results

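The proteasome is the large protease that degrades proteins tagged with ubiquitin. Its barrel-shaped core is built of α and β rings, and 3 kinds of β subunit carry the active sites. A cap on the barrel binds tagged proteins, removes the ubiquitin, and unfolds and feeds them in with a ring of ATPases. Assembly chaperones help to build both parts and leave afterwards, while separate activators can take the place of the cap. The mTOR complex that contains Raptor, mTORC1, is known to act on both protein synthesis and proteasome gene transcription, the latter through the transcription factor NRF1 (*Nfe2l1*). In β-cells, which make large amounts of proinsulin, the proteasome removes misfolded secretory proteins.

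The genes described here are the 47 protein-coding genes whose mouse symbol begins with Psma, Psmb, Psmc, Psmd, Psme, Psmf or Psmg, without the interferon-inducible *Psmb8*, *Psmb9* and *Psmb10*, out of 34728 genes with a symbol. They comprise 7 constitutive α-ring genes, 7 β-ring genes, 6 cap ATPases, 11 other cap subunits, 7 assembly chaperones, and 5 activators or inhibitors. The other 4 are *Psma8*, *Psmb11*, *Psme2b* and *Psmc3ip*. *Psma8* encodes the testis form of an α subunit and *Psmb11* the form of a β subunit used in the thymus. *Psme2b* is a single-exon copy of *Psme2*, and *Psmc3ip* encodes a recombination protein that is no part of the proteasome.

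RNA was measured in GFP-positive cells sorted from dispersed islets of 8-week-old male mice of the strain C57BL/6 x 129SV. All mice, WT included, carried RIP-Cre, in which the rat insulin promoter drives Cre, and a GFP reporter at *Rosa26* that Cre switches on, so that every cell that had expressed Cre was labelled, whatever it later became. WT littermates (3 libraries) had intact *Raptor*, and diabetic βRapKOGFP mice (4 libraries) had lost *Raptor* in these cells. Euglycemic βRapKOGFP mice (4 libraries) had the same deletion and had received insulin from an implanted pellet or pump for 4 weeks. Levels are FPKM, fragments per kilobase of transcript scaled to the total of fragments, which is per length and so can be compared between genes.

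The sorted cells had *Ins1*, *Ins2* and the other 5 β-cell markers examined above 0 in every library. *Rptor*, the deleted gene, was at 0.948 to 1.79 FPKM in WT, 0.485 to 0.937 FPKM in diabetic and 0.423 to 0.623 FPKM in euglycemic libraries. Library depth, inferred from the step between low values, ranged from 9506218 to 16658951 fragments. WT replicate 1 stood apart from the other WT libraries in the proteasome genes, so the comparisons with WT are given with and without it.

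The promoters of 4 proteasome genes are shown because they carry the motifs that were searched for, TGACNNNGC, the core of the element that NRF1 binds, in *Psmb5* and *Psmb6*, and the ETS-type motif CCGGAAG in *Psmd4* and *Psmd2*. *Psmb5* and *Psmb6* encode active-site subunits, *Psmd4* is the member whose level followed the other members most closely across libraries, and *Psmd2* is one that followed them weakly. The sequences are from RefSeq on GRCm38.p6, read 5′ to 3′ on the strand of the gene, and end before the first annotated transcript base. Capitals mark the motif on either strand. They lie at chr14:54618023-54618245 (minus strand), chr11:70525107-70525356 (plus strand), chr3:95042615-95042864 (minus strand) and chr16:20651402-20651651 (plus strand).
Psmb5: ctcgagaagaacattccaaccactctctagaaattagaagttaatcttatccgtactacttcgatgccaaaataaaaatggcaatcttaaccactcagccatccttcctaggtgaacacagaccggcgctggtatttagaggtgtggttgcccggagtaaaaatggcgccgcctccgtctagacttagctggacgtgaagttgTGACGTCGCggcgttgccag
Psmb6: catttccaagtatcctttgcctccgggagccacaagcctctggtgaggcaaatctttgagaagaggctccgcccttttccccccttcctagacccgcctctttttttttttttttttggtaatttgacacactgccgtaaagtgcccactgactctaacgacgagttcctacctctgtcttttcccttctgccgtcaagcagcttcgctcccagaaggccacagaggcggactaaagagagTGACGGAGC
Psmd4: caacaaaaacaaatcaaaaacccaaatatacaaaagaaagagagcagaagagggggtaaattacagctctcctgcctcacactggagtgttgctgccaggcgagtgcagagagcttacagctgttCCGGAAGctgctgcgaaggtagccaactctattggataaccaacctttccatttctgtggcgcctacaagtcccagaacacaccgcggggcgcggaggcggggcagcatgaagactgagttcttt
Psmd2: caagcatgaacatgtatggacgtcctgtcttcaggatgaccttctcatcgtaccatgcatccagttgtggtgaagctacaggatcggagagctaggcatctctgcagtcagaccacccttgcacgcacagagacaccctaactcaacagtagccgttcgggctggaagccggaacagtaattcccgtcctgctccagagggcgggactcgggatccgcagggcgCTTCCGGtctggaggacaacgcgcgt

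A promoter sequence from 250 bases before to 50 bases after the RefSeq start was at hand for 39 of the 47 genes. TGACNNNGC occurred in 6 of the 39 (15.4%), namely *Psmb5*, *Psmb6*, *Psmc6*, *Psmd9*, *Psmd12* and *Psme4*, which is close to its share in the promoters of all genes (12.5% of 27025) and of the genes tested here (15.3% of 8471). CCGGAAG, in contrast, occurred in 14 of the 39 (35.9%), against 9.12% of all promoters and 19.8% of those of the genes tested. These 14 were *Psmc1*, *Psmc2*, *Psmc6*, *Psmd2*, *Psmd4*, *Psmd6*, *Psmd11*, *Psmd12*, *Psmd13*, *Psme3*, *Psme4*, *Psmg1*, *Psmg3* and *Psmc3ip*, with no α-ring or β-ring gene among them. The CCAAT box was found in 35.9% of the members' promoters and 38.9% of those of the genes tested. The GC box GGGCGG was found in 56.4% and 66.4%, respectively. In all, 13 motifs were searched on both strands, and such a match is a stretch of letters and not an occupied site. CCGGAAG shares letters with GGAAGTG, another of the 13, where they overlap.

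The 44 genes that reached 1 FPKM in 3 or more libraries were tested with limma on log2(FPKM + 1), within a fit across all 11251 such genes. Their WT means lay between 3.19 and 174 FPKM, and the subunits of one ring were far from equal in their transcripts. Among the α-ring genes, the WT mean ran from 8.99 FPKM for *Psma3* to 169 FPKM for *Psma2*, an 18.8-fold range. In the β ring it ran from 15.8 FPKM for *Psmb7*, the trypsin-like active-site subunit, to 174 FPKM for *Psmb1*, which has no active site. The cap ATPases were closer together, with *Psmc3* lowest at 22.8 FPKM and *Psmc1* highest at 109 FPKM, a 4.77-fold range. The other cap subunits lay between 5.55 FPKM (*Psmd11*) and 82.7 FPKM (*Psmd7*). Assembly chaperones and activators were lower, at 3.77 FPKM (*Psmd9*) to 35.2 FPKM (*Psmg2*) and 3.19 FPKM (*Psme4*) to 27.4 FPKM (*Psme3*).

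**Figure D1:**
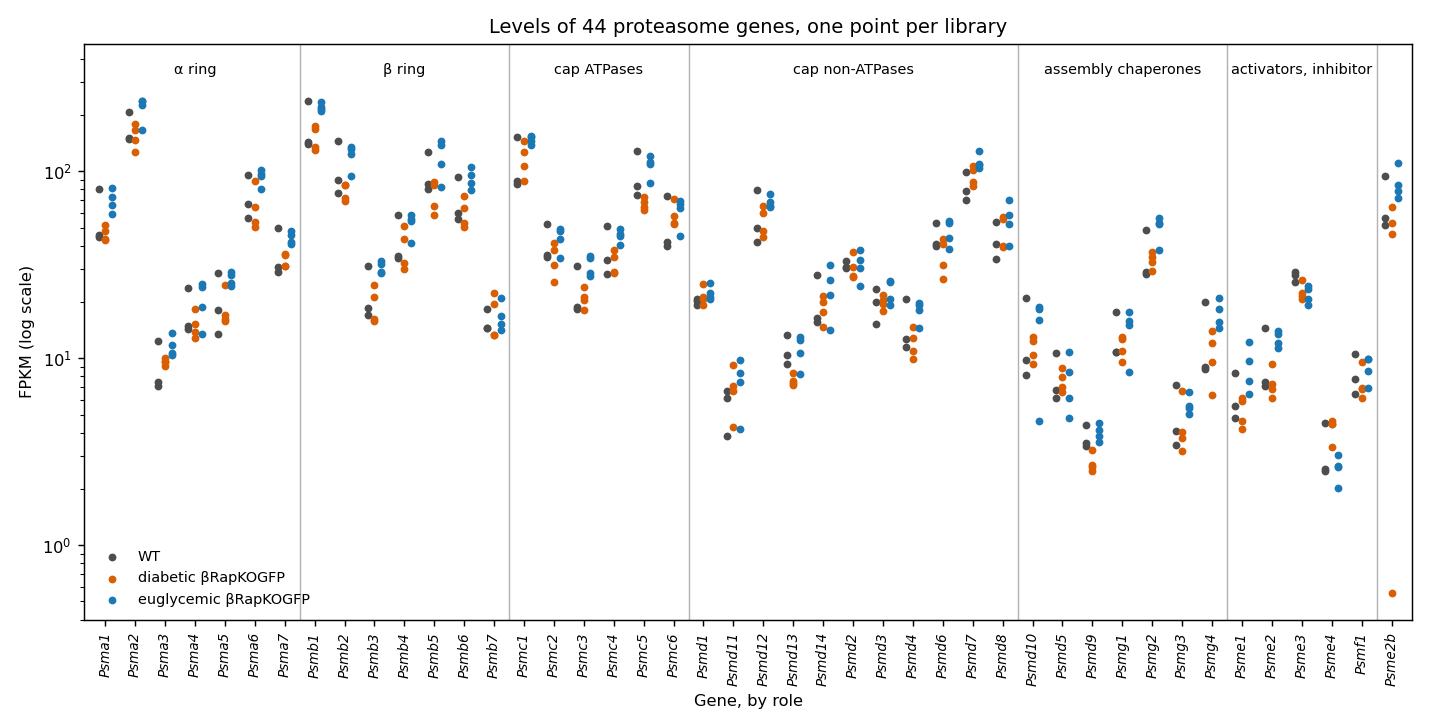
FPKM (log scale) of the 44 proteasome genes tested, with one point per library and the genes ordered by role. The order of the genes is much the same in the WT, diabetic and euglycemic libraries, from *Psma2* and *Psmb1* at the top to *Psmd9* and *Psme4* near the bottom, and the lone low point is *Psme2b* in diabetic replicate 1.

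This order of levels was kept from library to library. The rank correlation of the 44 levels had a median of 0.978 over the 55 pairs of libraries and was 0.859 at the lowest. Some levels may be divided among near-identical copies of a gene, since *Psmb5* shared 54.1% of its 50-base stretches with other genes, most often *Gm3375*. This share was 49.96% for *Psma5*, most often with *Gm8394*, and 28.3% for *Psme2*, most often with *Psme2b*. *Psmd9* shared 25.5% of its exon bases with an antisense transcript, and *Psmb7* (*Nek6*), *Psmd13* (*Sirt3*) and *Psmc3* (*Slc39a13*) overlapped a neighbour on the other strand, which libraries without strand information cannot separate.

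The first question was whether proteasome gene expression differed between diabetic βRapKOGFP and WT β-cells. WT mice were not diabetic, so Raptor loss and hyperglycemia cannot be told apart in this comparison. At an adjusted p of at most 0.05, 0 of the 44 members were called between diabetic and WT β-cells, where 0.969% of all genes were called. At an unadjusted p of at most 0.05, 2 of 44 were lower and 0 higher, against 5.74% and 6.15% of all genes. The median log2 difference of the members was -0.13 (all genes, 0.01), and 34 of 44 lay below 0 (all genes, 49.3%). The 95% interval of a member had a median half-width of 0.49 on the log2 scale.

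The 3 members with the lowest p in this comparison were a cap subunit, an ATPase and an assembly chaperone. *Psmd13*, a cap subunit, was at 13.3, 9.28 and 10.4 FPKM in WT, 7.20, 7.59, 7.41 and 8.34 FPKM in diabetic and 13.1, 12.5, 10.7 and 8.22 FPKM in euglycemic libraries. The diabetic libraries were all lower than the WT libraries, with a log2 difference of -0.46 ± 0.20 (SE; limma adjusted p = 0.383). *Psmc5*, an ATPase of the cap, differed by -0.47 ± 0.21 (adjusted p = 0.409, limma). *Psmd9*, a chaperone of the ATPase ring, differed by -0.34 ± 0.17 (adjusted p = 0.457, limma). Without WT replicate 1 these differences were -0.33 for *Psmd13*, -0.24 for *Psmc5* and -0.25 for *Psmd9*. With all libraries, these were the 3 members whose diabetic libraries all lay below the WT libraries, against 6.88% of all genes, and in 0 members did they all lie above, against 6.67%.

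The position of the diabetic group depended on WT replicate 1. In the members, this library was a median 1.61-fold above the mean of the other WT libraries (0.69 on the log2 scale) and exceeded both in 41 of 44 members, compared with 44.7% of all genes. *Psmd11*, *Psmd1* and *Psme4* were the 3 members in which it did not. It was also the library with the highest level of 16 members. Without it, the median log2 difference of diabetic against WT was 0.07 instead of -0.13, with 12 instead of 34 of 44 members below 0, 0 members called (0.304% of all genes) and 1 at an unadjusted p of at most 0.05 (10.6% of all genes). Without WT replicate 2 it was -0.26, and without WT replicate 3 it was -0.22.

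For euglycemic against WT β-cells, the members tended to be higher. These groups differed by Raptor loss and also by 4 weeks of insulin, which WT mice did not receive. Raptor loss and insulin treatment cannot be told apart in this comparison. Again 0 of 44 were called (0.551% of all genes). The median log2 difference was 0.29 (all genes, -0.01), with all 14 ring genes, all 6 ATPases and 10 of 11 other cap subunits above 0, and 40 of 44 members in all, leaving 4 below 0 (all genes, 51%). At an unadjusted p of at most 0.05, 3 members were higher, against 7.33% of all genes, and 0 lower, against 6.52%. The libraries did not overlap in 2 members that were higher, *Psmd7* and *Psmd1* (5.91% of all genes), and in 1 that was lower, *Psme3* (5.02%). *Psmd7*, the cap subunit that pairs with the deubiquitinase *Psmd14*, was at 99.2, 70.5 and 78.4 FPKM in WT, 83.7, 88.2, 107 and 102 FPKM in diabetic and 108, 128, 109.6 and 104 FPKM in euglycemic libraries. Its euglycemic libraries all exceeded the WT libraries, with a log2 difference of 0.45 ± 0.19 (adjusted p = 0.304, limma), or 0.59 without WT replicate 1. *Psmg2*, a chaperone of α-ring assembly, was at 48.4, 28.4 and 29.0 FPKM in WT, 32.6, 34.7, 37.0 and 29.4 FPKM in diabetic and 56.1, 52.4, 52.8 and 37.8 FPKM in euglycemic libraries. WT replicate 1 lay within the range of the euglycemic libraries, and the difference was 0.51 ± 0.22 (adjusted p = 0.328, limma). *Psmc3*, another ATPase, differed by 0.48 ± 0.21 (adjusted p = 0.343, limma).

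The 4 members below 0 included 2 activators. *Psme3*, which encodes a nuclear activator, was at 28.9, 27.9 and 25.5 FPKM in WT, 21.6, 22.2, 26.2 and 20.7 FPKM in diabetic and 23.4, 19.3, 24.4 and 20.7 FPKM in euglycemic libraries. All euglycemic libraries lay below all WT libraries, by -0.31 ± 0.17 on the log2 scale (adjusted p = 0.424, limma), or -0.28 without WT replicate 1, which was close to the other WT libraries. The remaining members below 0 were *Psme4*, *Psmd5* and *Psmd2*, the last by only -0.01.

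Without WT replicate 1, the median log2 difference of euglycemic against WT was 0.53, whereas it was 0.15 without WT replicate 2 and 0.20 without WT replicate 3. At an unadjusted p of at most 0.05, 23 of 44 members then passed (24.6% of all genes), and at an adjusted p of at most 0.05 *Psmc3* (0.72 ± 0.18, adjusted p = 0.0471) and *Psmg2* (0.76 ± 0.19, adjusted p = 0.0487) were called, where 4.76% of all genes were. With limma's library weights, which gave WT replicate 1 a weight of 0.284 and euglycemic replicate 4 a weight of 0.229, 29 of 44 members were called, all higher, against 27.6% of all genes called in either direction and 15.9% called as higher. Conversely, leaving out WT replicate 2 or WT replicate 3 left 0 members at an unadjusted p of at most 0.05 (7.82% and 7.08% of all genes). The number of members past either threshold between euglycemic and WT cells therefore depended on which WT libraries were used.

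**Figure D2:**
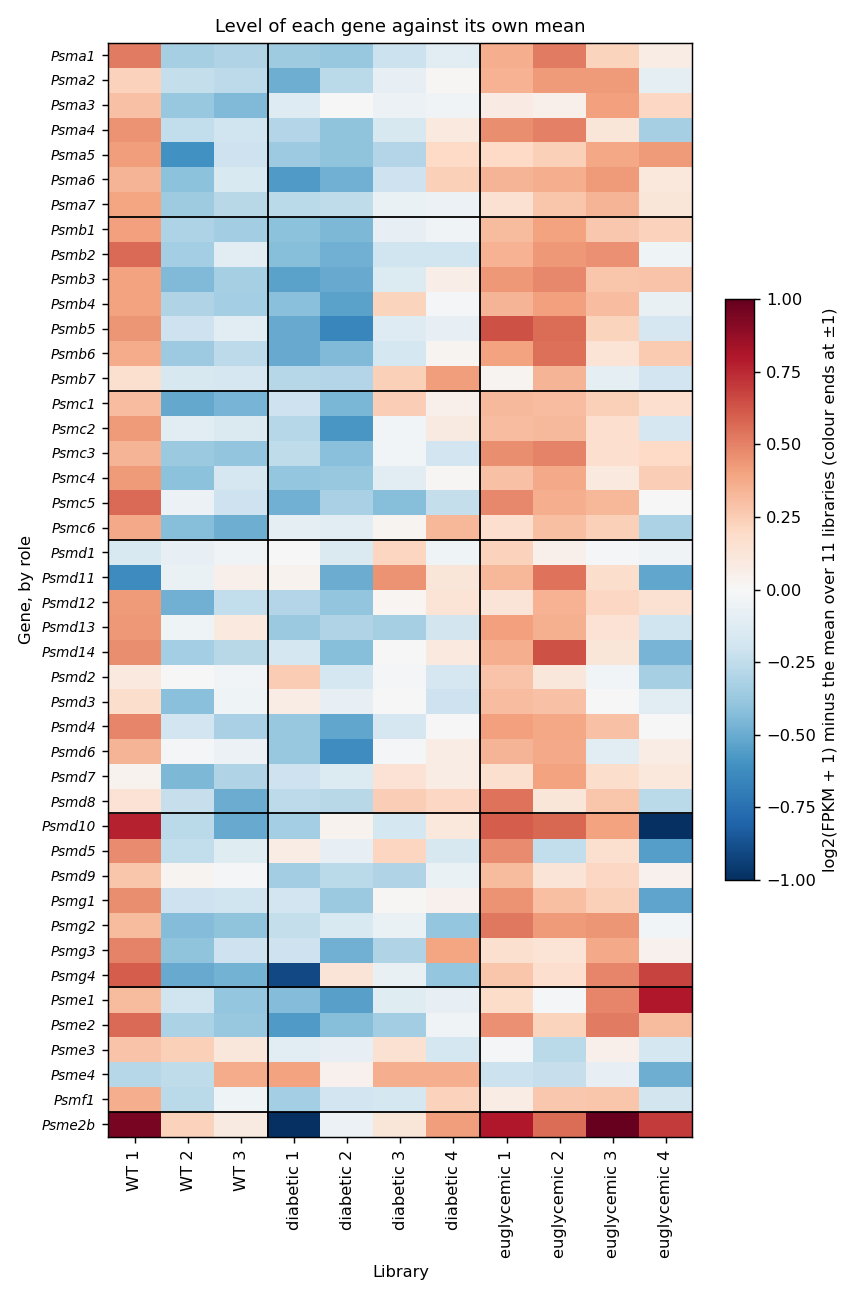
log2(FPKM + 1) of each tested gene minus its own mean over the 11 libraries, with genes in rows ordered by role and libraries in columns; the colour scale ends at ±1. WT replicate 1 and euglycemic replicates 1 to 3 are above the mean in nearly all rows, whereas WT replicates 2 and 3 and diabetic replicates 1 and 2 are below it.

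When the libraries were compared one by one, the number of members above their own mean over the libraries was 41 of 44 in WT replicate 1 but 3 and 5 in WT replicates 2 and 3. It was 5, 3, 15 and 24 in the diabetic libraries and 42, 40, 39 and 20 in the euglycemic libraries. Diabetic replicate 4 and euglycemic replicate 4 therefore met in the middle, with a median member deviation of 0.01 and -0.02 on the log2 scale. The α-ring medians of the euglycemic libraries, 0.11 to 0.39, did not overlap those of the diabetic libraries, -0.38 to 0.01. The medians of the β ring did overlap, at -0.05 to 0.43 in euglycemic and -0.48 to -0.01 in diabetic libraries. Over all genes tested, the median deviation stayed between -0.12 and 0.13 in every library. Genes with a longest transcript under 1500 bases, however, differed in the same direction as the members, and without overlap between the mutant groups. Their medians were 0.05 to 0.27 in euglycemic and -0.33 to -0.02 in diabetic libraries. They were 0.32 in WT replicate 1, and -0.23 and -0.22 in the other WT libraries.

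**Figure D3:**
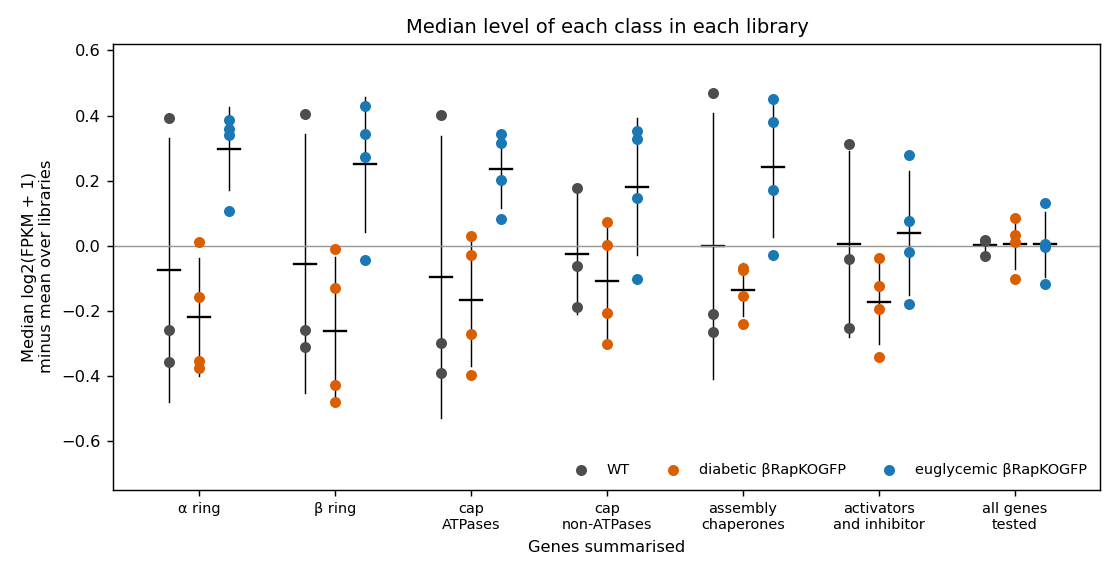
Median deviation of log2(FPKM + 1) from the mean over libraries for each class of proteasome genes and for all genes tested; each point is 1 library and the black lines are the group mean and SD (n = 3 WT, 4 diabetic, 4 euglycemic). In the α ring, the cap ATPases and the assembly chaperones all euglycemic points lie above all diabetic points, and WT replicate 1 lies with the euglycemic points. The medians of all genes, of every length together, stay near 0.

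The mutant groups were then compared, diabetic with insulin-treated mice of the same genotype, which does not use the WT libraries for its means. The difference of diabetic from euglycemic β-cells was below 0 in 40 of 44 members, compared with 49.1% of all genes, and its median was -0.40 on the log2 scale (all genes, 0.01). Still, 0 members were called (0.00889% of all genes), and the lowest adjusted p was 0.133 (limma). Without WT replicate 1, which enters here through the estimate of the spread and the genes tested, *Psmc5* and *Psme2* were called (3.44% of all genes), and with library weights 16 members were (12.7% of all genes). At an unadjusted p of at most 0.05, 20 of 44 members passed (45.5%), against 20.6% of all genes. Of these, 19 were lower in diabetic cells (background 10%) and 1 was higher (background 10.6%). All diabetic libraries lay below all euglycemic libraries in 16 members (36.4%), against 7.42% of all genes, and above them in 1 member, against 6.85%.

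By role, the β ring had a median log2 difference of -0.61, with 6 of 7 genes below 0. It was -0.48 in the α ring, with all 7 below 0, and -0.42 in the ATPases, with all 6 below 0. The other cap subunits had a median of -0.24, with all 11 below 0. The assembly chaperones (-0.33, 6 of 7) and the activators and inhibitor (-0.23, 3 of 5) followed. Differences between these classes were not tested, and their order changed when length was corrected. At an unadjusted p of at most 0.05, 9 of 14 ring genes and 5 of 17 cap genes passed, against 20.6% of all genes.

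*Psmc5* had the lowest p of any member, at 129, 83.2 and 75.2 FPKM in WT, 62.04, 68.9, 64.1 and 73.3 FPKM in diabetic and 121, 112, 109.6 and 86.7 FPKM in euglycemic libraries. The lowest euglycemic library was above the highest diabetic library, and the log2 difference was -0.66 ± 0.20 (95% interval -1.09 to -0.24, 1.58-fold; limma adjusted p = 0.133). *Psme2*, a subunit of the interferon-inducible activator, was at 14.6, 7.44 and 7.09 FPKM in WT, 6.13, 6.83, 7.26 and 9.27 FPKM in diabetic and 13.4, 11.3, 14.1 and 12.1 FPKM in euglycemic libraries. It too separated the mutant groups completely, by -0.72 ± 0.22 (adjusted p = 0.135, limma), although it shares sequence with *Psme2b*. *Psmb3*, a β-ring subunit without an active site, was at 31.3, 17.0 and 18.5 FPKM in WT, 15.9, 16.3, 21.3 and 24.7 FPKM in diabetic and 32.1, 33.1, 28.7 and 28.9 FPKM in euglycemic libraries. Its difference was -0.65 ± 0.21 (adjusted p = 0.15, limma), again with no overlap between the mutant groups.

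The 3 active-site genes were read one by one. *Psmb5*, the chymotrypsin-like subunit, was at 127, 80.4 and 86.1 FPKM in WT, 65.4, 58.7, 84.9 and 87.6 FPKM in diabetic and 146, 138, 109 and 82.5 FPKM in euglycemic libraries. The groups overlapped through euglycemic replicate 4, and the log2 difference was -0.66 ± 0.23 (adjusted p = 0.164, limma). *Psmb6*, the caspase-like subunit, differed by -0.61 ± 0.21 (adjusted p = 0.154, limma) without overlap. *Psmb7*, the trypsin-like subunit, was at 18.4, 14.6 and 14.5 FPKM in WT, 13.3, 13.2, 19.5 and 22.3 FPKM in diabetic and 16.7, 21.1, 15.3 and 14.2 FPKM in euglycemic libraries. Its difference was 0.00 ± 0.21, with a 95% interval of -0.45 to 0.45. *Psmb5*, *Psmb6* and *Psmb7* were named for their role and not by the rule for named genes. Their differences from one another were not tested.

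The α-ring, β-ring and ATPase genes with the highest level in their class lay below 0. *Psma2* was at 209, 149.9 and 148 FPKM in WT, 126, 147, 167 and 179 FPKM in diabetic and 226, 239, 238 and 166 FPKM in euglycemic libraries, and differed by -0.48 ± 0.20 (adjusted p = 0.202, limma). *Psmb1* was at 237, 144 and 140.1 FPKM in WT, 134, 131, 168 and 174 FPKM in diabetic and 222, 236, 216 and 209.8 FPKM in euglycemic libraries. Here all diabetic libraries were lower than the euglycemic ones, by -0.55 ± 0.20 (adjusted p = 0.172, limma). *Psmc1*, the ATPase that helps to open the gate of the core, was at 152, 85.8 and 88.8 FPKM in WT, 106, 89.0, 146 and 127 FPKM in diabetic and 154, 152, 145 and 138 FPKM in euglycemic libraries. The mutant groups overlapped in *Psmc1* through diabetic replicate 3, and the difference was -0.35 ± 0.22 (adjusted p = 0.367, limma), ranging from -0.47 without that library to -0.23 without diabetic replicate 2.

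*Psme4*, singled out after its values were seen, lay on the other side of 0. It encodes the large single-chain activator found in nuclei, and it was at 2.49, 2.56 and 4.51 FPKM in WT, 4.62, 3.37, 4.46 and 4.47 FPKM in diabetic and 2.67, 2.63, 3.02 and 2.03 FPKM in euglycemic libraries. All diabetic libraries exceeded all euglycemic libraries, by 0.54 ± 0.19 on the log2 scale (95% interval 0.13 to 0.96; limma adjusted p = 0.164), while the WT libraries spanned both. With transcript length corrected, as described further on, its difference was 0.24. *Psme3*, *Psmd5* and *Psmb7* were the other 3 members not below 0, with differences of 0.05, 0.05 and 0.00.

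**Figure D4:**
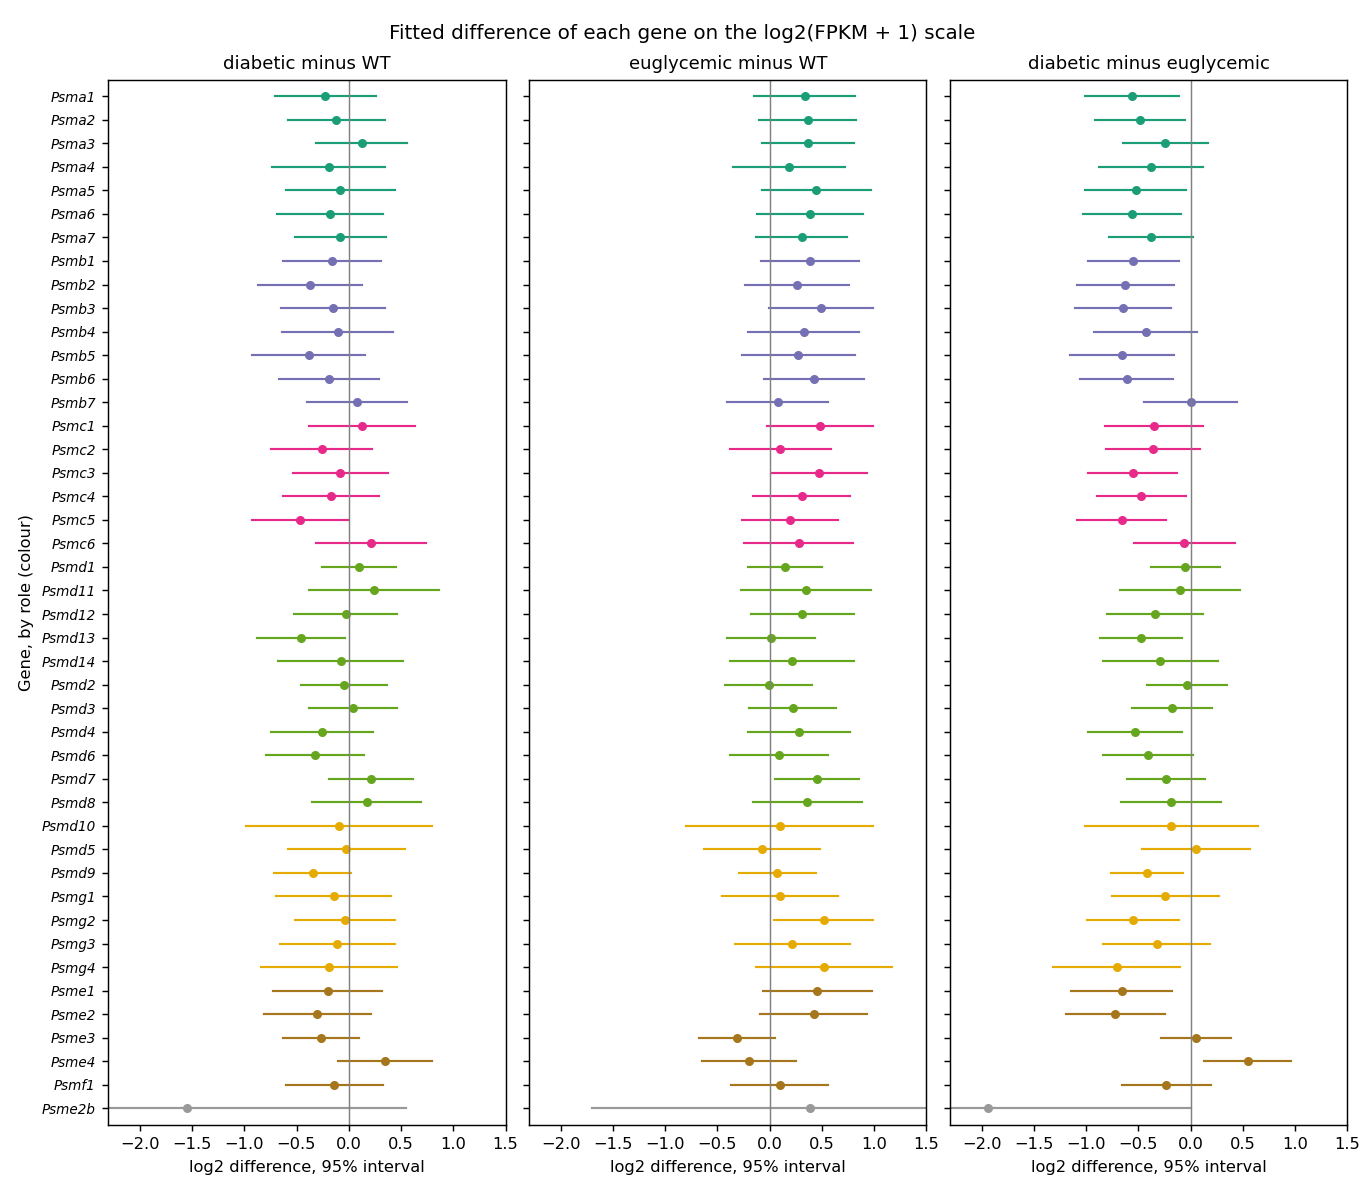
Fitted log2 difference and 95% interval (limma, unadjusted) of each tested gene for diabetic minus WT, euglycemic minus WT and diabetic minus euglycemic libraries, coloured by role; the intervals of *Psme2b* run past the axes. In the right panel 40 of 44 points lie left of 0 and *Psme4* lies farthest to the right at 0.54, and in the middle panel 40 of 44 lie right of 0.

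With both mutant groups averaged, little difference from WT was seen. Against WT, 0 of 44 members were called (1.05% of all genes). At an unadjusted p of at most 0.05, 0 were lower (5.37% of all genes) and 0 higher (5.94%), together 11.3% of all genes. The mutant libraries lay all below WT in 0 members (1.78% of all genes) and all above in 0 (1.9%). The median was 0.08, and 14 of 44 members were below 0 (all genes, 50.6%). The member of each class that differed most was *Psma3* (0.24 ± 0.18), *Psmb3* (0.17 ± 0.20), *Psmc1* (0.31 ± 0.21), *Psmd7* (0.33 ± 0.17), *Psmg2* (0.24 ± 0.20) and *Psme3* (-0.29 ± 0.15). With 1 library left out at a time, the differences ranged over 0.11 to 0.48, 0.012 to 0.43, 0.16 to 0.57, 0.22 to 0.47, 0.11 to 0.48 and -0.34 to -0.25 in the same order, and the highest value of each was that without WT replicate 1. The lowest adjusted p with all libraries was 0.495, for *Psmd7* (limma). *Psma3*, the α-ring gene with the lowest level, was at 12.4, 7.43 and 7.09 FPKM in WT, 9.08, 9.99, 9.58 and 9.70 FPKM in diabetic and 10.6, 10.4, 13.6 and 11.7 FPKM in euglycemic libraries. Without WT replicate 1 the median became 0.31 with 10 members at an unadjusted p of at most 0.05 (16.1% of all genes), and it was below 0 without WT replicate 2 (-0.05) or WT replicate 3 (-0.02).

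The differences between the mutant groups went with transcript length, in proteasome genes as in genes at large. The longest annotated transcript of the members had a median of 1851 bases, against 3084 bases for all genes tested. Across the 44 members the log2 difference of diabetic against euglycemic rose with this length (Spearman's rho 0.72, a description across genes of the same libraries), and across all genes tested with a length rho was 0.53. Below 1500 bases the median was -0.56 in 16 members and -0.35 in 1896 genes. From 1500 to 3000 bases it was -0.35 in 22 members and -0.14 in 3477 genes, and from 3000 to 5000 bases -0.05 in 5 members and 0.12 in 3754 genes. *Psme4*, with 6491 bases the longest of the members, was at 0.54, where the 2086 genes of 5000 bases or more had a median of 0.31. In each of the first 3 ranges the median of the members was lower than that of all genes of that length.

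The same held in single libraries. Across all genes, the correlation of each gene's deviation from its mean with its length was -0.13 to -0.44 in the euglycemic libraries and 0.02 to 0.51 in the diabetic ones. WT replicate 1 (-0.39) was like the euglycemic libraries, and the other WT libraries (0.32 and 0.36) were like the diabetic ones.

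When each library's dependence on length was removed before the fit, the members' median difference between diabetic and euglycemic cells was -0.22. There were then 10 of 44 members at an unadjusted p of at most 0.05, against 15.3% of all genes. Of these, 9 were among the 20 found without the correction, and *Psmc2* was not. The median was then -0.35 in the activators and inhibitor, -0.31 in the ATPases, -0.27 in the β ring, -0.22 in the α ring, -0.22 in the assembly chaperones and -0.10 in the other cap subunits. *Psmc5* again had the lowest p, with a difference of -0.38 ± 0.12 (adjusted p = 0.229, limma). For euglycemic against WT the median was 0.16 after this correction. For diabetic against WT it was -0.06, with 26 of 44 members below 0 and 4 at an unadjusted p of at most 0.05 (14.1% of all genes). Between the mutant groups, the differences of *Psme2* (-0.38), *Psmb3* (-0.38), *Psmb1* (-0.37), *Psmb5* (-0.30), *Psmb6* (-0.27) and *Psmc1* (-0.10) were all closer to 0 than without the correction. That of *Psma2* was -0.47. With length and GC content corrected together, the median between the mutant groups was -0.20.

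**Figure D5:**
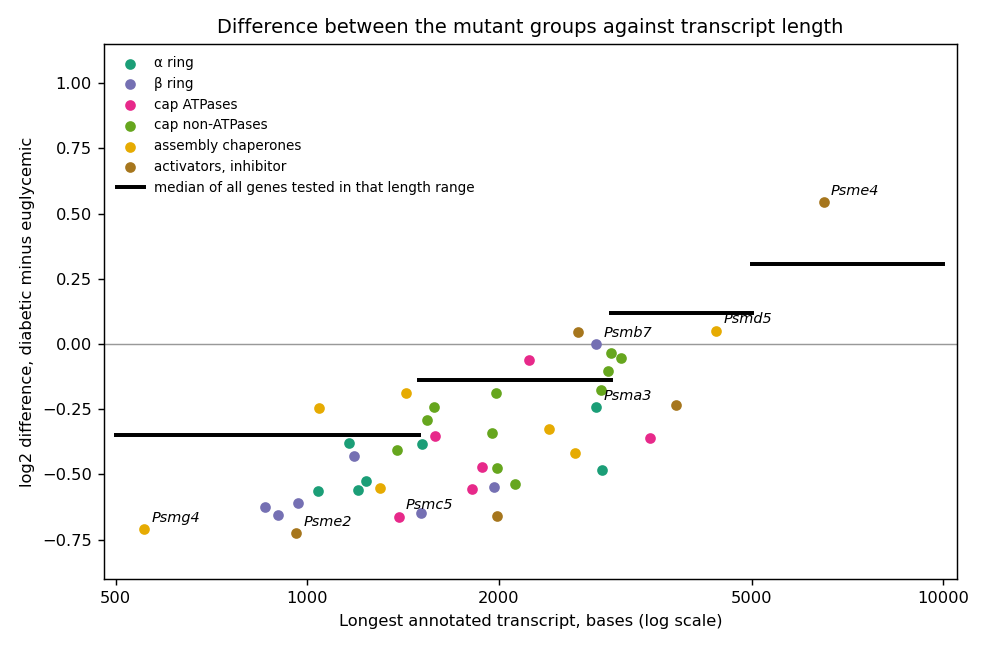
log2 difference of diabetic minus euglycemic libraries against the length of the longest annotated transcript (log scale) for 43 proteasome genes, *Psme2b* being left out; black lines are the medians of all genes tested under 1500, 1500 to 3000, 3000 to 5000, and 5000 bases or more. The points rise from -0.71 for *Psmg4*, the shortest of the members, to 0.54 for *Psme4*, the longest, and most lie below the line of their length range.

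Correlations among members across the 11 libraries were computed by structure. The median pairwise Pearson correlation of log2(FPKM + 1) was 0.86 among α-ring genes, 0.88 among β-ring genes and 0.87 between the rings. It was 0.80 among the ATPases, 0.62 among the assembly chaperones and 0.53 among the other cap subunits, compared with 0.74 between core and cap genes and 0.66 over all 946 pairs of members. These libraries share the group differences and the dependence on length above, and after subtraction of the group means the values were 0.78, 0.84, 0.80, 0.79, 0.62 and 0.54. In 27 of 44 members the level had a correlation of at least 0.8 with the median of the other members, the highest being *Psmd4* (0.98), the ubiquitin receptor of the cap, and *Psma1* (0.97). Only 6 were below 0.5. These were *Psme4* (-0.48), *Psme3* (-0.02), *Psmd11* (0.21), the scaffold subunits *Psmd2* (0.29) and *Psmd1* (0.30), and the chaperone *Psmd5* (0.42). All 6 had longest transcripts of 2664 to 6491 bases, against a median of 1851 bases over the members. Correlations with length corrected were not computed. *Psmd1* was nearly flat, at 19.2, 20.2 and 20.8 FPKM in WT, 21.3, 19.3, 24.98 and 20.8 FPKM in diabetic and 25.2, 22.2, 21.3 and 20.8 FPKM in euglycemic libraries.

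*Psme2b*, the single-exon copy, shared 69.3% of its 50-base stretches with other genes, most often *Psme2*. It was at 94.0, 56.6 and 51.4 FPKM in WT, 0.555, 46.2, 52.6 and 64.6 FPKM in diabetic and 84.8, 71.7, 111 and 78.8 FPKM in euglycemic libraries. Diabetic replicate 1 stood alone at 0.555 FPKM, whereas *Psme2* itself was at 6.13 FPKM in that library. Fragments of both genes may not be separable, and the difference of *Psme2b* between the mutant groups, -1.94 ± 0.90, was -0.65 without that library, with the other 3 diabetic libraries all below the euglycemic ones.

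The 3 members below the filter were expressed little or not at all. *Psma8* and *Psmb11* were listed at 0 in every library but diabetic replicate 1, where they were at 0.329 and 0.197 FPKM. *Psmc3ip* was at 0.478, 0.525 and 0.533 FPKM in WT, 0.579, 0.201, 0.784 and 0.66 FPKM in diabetic and 1.497, 0.95, 0.852 and 0.932 FPKM in euglycemic libraries. All euglycemic libraries lay above the others, with exact permutation p = 0.0286 against diabetic and p = 0.0571 against WT (two-sided, each the smallest that these group sizes allow), and 21.2% of its exon bases overlap *Mlx* on the other strand.

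Other genes of the pathway were read from lists of 9 proteasome partners, 6 genes of the NRF1 route, 12 ubiquitin and shuttle genes, and the 3 immunoproteasome genes. Of these 30 genes, 0 were called in any of the 4 comparisons (0.00889% to 1.05% of all genes). Without WT replicate 1, 3 were called between euglycemic and WT cells (4.76% of all genes), *Nfe2l1*, *Ube3c* and *Ubqln2*, and 2 between the mutant groups (3.44%), *Psmb10* and *Ubqln2*. Of these, *Ubqln2* was named after its values were seen. With library weights 11 were called between euglycemic and WT (27.6% of all genes), 8 between the mutant groups (12.7%) and 2 between all mutant libraries and WT (15.3%). *Nfe2l1*, which encodes NRF1, was at 2.04, 3.72 and 15.0 FPKM in WT, 2.93, 5.61, 3.64 and 3.04 FPKM in diabetic and 1.98, 1.23, 1.90 and 2.53 FPKM in euglycemic libraries. WT replicate 3 was far above the other libraries, and both mutant groups together differed from WT by -0.74 ± 0.38 (adjusted p = 0.521, limma). This was -1.24 without WT replicate 1 and -0.043 without WT replicate 3. The NRF1 list had a median of -0.03 in that comparison and of 0.19 between the mutant groups. The ubiquitin ligase *Ube3c* (-0.40 ± 0.22, adjusted p = 0.56, limma) had the lowest p of its list against WT, and its difference was -0.67 without WT replicate 1 and -0.24 without WT replicate 2.

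Between the mutant groups the partner lists had medians on both sides of 0. The proteasome partners had a median log2 difference of -0.29, 7 of 9 below 0, as in the subunits themselves. *Pomp*, the chaperone of core maturation, was at -0.69 ± 0.25 (adjusted p = 0.172, limma) and was named outside the rule for named genes. The ubiquitin and shuttle genes had a median of 0.34, with 3 of 12 below 0. *Ubqln2*, a shuttle that carries tagged proteins to the cap, was at 4.48, 10.6 and 10.8 FPKM in WT, 9.34, 9.66, 8.52 and 8.45 FPKM in diabetic and 3.95, 4.27, 4.92 and 6.10 FPKM in euglycemic libraries. All diabetic libraries exceeded all euglycemic libraries, by 0.79 ± 0.24 (adjusted p = 0.135, limma). The 3 immunoproteasome genes had a median of -0.90, with *Psmb10* at 29.0, 15.1 and 15.3 FPKM in WT, 11.1, 15.3, 17.3 and 15.4 FPKM in diabetic and 32.3, 21.5, 53.4 and 70.7 FPKM in euglycemic libraries. Its difference was -1.41 ± 0.33 (adjusted p = 0.122, limma), with no overlap between the mutant groups.

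Markers of other cell types were summed in each library. The sums of 4 duct markers, 94.3 to 129.7 FPKM in euglycemic and 56.2 to 84.3 FPKM in diabetic libraries, did not overlap between the mutant groups and lay higher in euglycemic libraries, the direction of 40 of 44 members. In WT they were 57.9 to 71.5 FPKM. Of the 4 duct markers, *Cftr* was at 0 in 8 libraries and at most 0.14 FPKM, while *Krt7* reached 89.3 FPKM. The sums of 3 δ-cell and PP-cell markers were 8350 to 23393 FPKM in diabetic, 9648 to 24022 FPKM in euglycemic and 1933 to 3380.4 FPKM in WT libraries. The summed FPKM of 8 endothelial markers was 9.18 to 53.1 in diabetic, 2.13 to 5.29 in euglycemic and 1.98 to 4.73 in WT libraries, with *Cdh5* at 0 in 6 libraries. That of 8 immune markers was 74.6 to 199.5 in diabetic, 58.4 to 129 in euglycemic and 34.5 to 43.7 in WT libraries, with *Ptprc* at 0 in 10 libraries. That of 10 acinar markers ran from 10.8 to 2100.2 in diabetic, from 5.51 to 3813 in euglycemic and from 2.48 to 34.7 in WT libraries, and that of 4 α-cell markers was 735 to 2117 in WT, 3434 to 14077 in diabetic and 4094 to 22925 in euglycemic libraries. Stromal markers, 4 in number, summed to 0.06 to 15.0 FPKM in diabetic and to at most 0.496 FPKM in the other libraries. The part of these cells in the differences of the proteasome genes was not tested, and in bulk RNA fewer cells of a type and less RNA per cell cannot be told apart.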

How the data were processed

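Poly-A RNA of FACS-sorted GFP-positive islet cells underwent paired-end sequencing without strand information in 11 libraries (3 WT, 4 diabetic and 4 euglycemic βRapKOGFP). The labels do not say whether the libraries of a group come from separate mice, so p-values measure the spread between these samples. The deposited values are FPKM per gene. The study's methods name Tophat and Cufflinks with mm10, while the submitters' processing notes name HISAT2 2.0.4, StringTie 1.3.0 and edgeR, so the tool behind the deposited FPKM is not settled. FPKM carries no fragment totals, so depth was inferred in single-exon genes, where 92.3 to 97.0% of low values were whole fragments (tolerance 0.02). Intervals and floors of counts were therefore not used.

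Of 34745 entries, 34267 were matched to a symbol, 478 were not, and 17 repeats were left out. Genes that reached 1 FPKM in 3 or more libraries were fitted with limma 3.58.1 in R 4.3.3 (lmFit, eBayes with trend) on log2(FPKM + 1), with Benjamini-Hochberg adjustment over 11251 genes. Calls used an adjusted p of at most 0.05, and adding a 1.5-fold minimum changed no count of calls. Differences are on this scale, which understates those of low genes. The fit was tested on simulated data. Members and lists were chosen with earlier results of these data known. Named genes are, in each class, the member with the highest level and that with the largest difference of all mutant libraries from WT. Also named are every member called, the 3 lowest p in each of 3 comparisons and the members below the filter. In each partner list, the gene with the lowest p against WT is named. Others are said to be chosen for their role, after their values were seen or outside this rule. Alternatives were no filter, a minimum of 5 FPKM, a pseudocount of 0.1, TPM, median-of-ratios scaling, library weights, a fit of only the groups compared, one without the trend, replicate numbers as a block, and each library left out; the corrections for length and GC content, from GENCODE vM21, were added after seeing the data. Members below the filter were compared by exact permutation tests. Tables were made in Python 3.11.15 with pandas 2.3.3, and exact tests with scipy 1.17.1. The authors' alignments were not used here. One gene that the rule names is not reported here.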

Additional observations from a re-analysis of the deposited data

Results flagged for a closer look

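In each group of 4 libraries, the FPKM of a member was examined for 1 library far from the other 3, in 92 groups with a value above 0. A gap above 0.829 of the group's range was met in 5 of them, and chance alone flags about 1 in 20. *Psma5* was at 24.5 FPKM in diabetic replicate 4 and at 15.8 to 17.1 FPKM in the other diabetic libraries. *Psme4* was at 3.37 FPKM in diabetic replicate 2 and at 4.46 to 4.62 FPKM in the other diabetic libraries. *Psmc3ip* was at 1.497 FPKM in euglycemic replicate 1 and at 0.852 to 0.950 FPKM in the other euglycemic libraries. *Psma8* (0.329 FPKM) and *Psmb11* (0.197 FPKM) were above 0 in diabetic replicate 1 only. *Psme2b*, at 0.555 FPKM in that library, did not pass this limit.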

How the results depend on the processing

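Counts of members, their medians, the medians of classes between the mutant groups and the differences of named genes were recomputed under 22 alternatives, or 21 for *Psmd9*, *Psme4* and *Nfe2l1*, which did not pass the minimum of 5 FPKM. Correlations, motif shares and marker sums were not recomputed. For diabetic against WT, 0 members were called under all of them. The median of the members there was 0.08 with library weights instead of -0.13, with 13 instead of 34 of 44 below 0. Library weights called 29 members for euglycemic against WT (median log2 difference 0.56 instead of 0.29), 16 for diabetic against euglycemic (12.7% of all genes) and 6 for all mutant libraries against WT (15.3% of all genes). Leaving out 1 library at a time gave 0 to 2 called members in euglycemic against WT and 0 to 2 in diabetic against euglycemic; in both, the value of 2 came without WT replicate 1, with *Psmc5* and *Psme2* called between the mutant groups. The other alternatives called 0 members in each comparison.

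The median difference between diabetic and euglycemic libraries stayed between -0.48 and -0.20. The members at an unadjusted p of at most 0.05 ranged from 10 with length corrected (15.3% of all genes) to 29 with library weights (32.3%). TPM put the median of all genes at 0.14 and that of the members at -0.29 in that comparison, with 12 of 45 members at an unadjusted p of at most 0.05 (18.1% of all genes). *Psmd7* turned from -0.24 to 0.012 with length corrected and to 0.022 with length and GC corrected. The difference of *Psme3*, 0.05, ranged from -0.021 to 0.098 with 1 library left out. That of *Psmb7*, near 0, was -0.00080 with a pseudocount of 0.1, -0.012 with median-of-ratios scaling, -0.075 with library weights and -0.13 to 0.11 with 1 library left out. The replicate numbers did not pair the libraries, since the correlation of deviations was -0.13 on average over 10 same-number pairs and 0.04 over other pairs. With the replicate block, 0 members were called and the medians were -0.14, 0.29, -0.40 and 0.08 for diabetic against WT, euglycemic against WT, diabetic against euglycemic and all mutant libraries against WT. With 3 or 4 libraries a group, the 95% interval of a member had a median half-width of 0.49 on the log2 scale in diabetic or euglycemic against WT.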
